A study of Mus musculus with 12 samples.

Results

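The 7 genes described here, Mpo, Elane, Prtn3, Ctsg, Prss57, Ms4a3 and Nkg7, are known from the primary (azurophil) granule stage of myeloid progenitors and were followed across 12 arrays of a mouse acute myeloid leukemia that the fusion gene MLL-AF9 drives. They were chosen by name: a gene was taken where the platform annotation gives a probe set its symbol and no other. Earlier results of these data were known when they were chosen. Shares of all tested genes given beside them are therefore descriptions, not tests of a list fixed beforehand. Each of the 7 had 1 such probe set, out of 22180 genes with a single-symbol probe set, and all 7 were among the 17749 genes that passed a filter on dim signals and were tested. In normal marrow the promyelocyte fills its first granules with myeloperoxidase and with serine proteases, which later granule stages no longer make. Mpo, Elane, Prtn3 and Ctsg are therefore classical markers of the granulocyte-monocyte progenitor, the stage that this leukemia resembles, and Myb, PU.1 and C/EBP factors are known to drive such genes. Ms4a3 marks the same progenitors, and Nkg7 encodes a membrane protein best known from the cytotoxic granules of natural killer and T cells.

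The study compared leukemias with and without the energy-sensing kinase AMPK, in 4 groups of 3 arrays. Wild-type groups carried floxed, undeleted alleles (AMPKfl/fl) and the knockout groups carried deleted alleles (AMPKΔ/Δ), all on the C57BL/6J strain. In all 4 groups, recipients irradiated with 10 Gy were given 50000 marrow progenitor and stem cells expressing MLL-AF9, and marrow was taken when each recipient developed leukemia. Each array holds RNA of 5000 sorted cells. These were taken without further selection from the GFP-positive cells (whole leukemia), or were leukemic granulocyte-macrophage progenitors (L-GMP), the GFP-positive, lineage-negative fraction positive for c-Kit, CD16/32 and CD34. The labels name neither the deleted AMPK subunit nor the Cre that deleted it, and give no ages. They also do not say that replicates are separate animals, so a p-value here weighs a difference against the spread of these arrays, some of which may be technical. Values are log2 of the deposited linear intensities, on which 1 unit is a doubling, and levels are compared within a gene only.

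Prkaa1, which encodes a catalytic AMPK subunit, was read first as a check of the labels. In L-GMP it averaged 8.15 ± 0.17 in wild type and 7.0 ± 0.27 in knockout (SD, n = 3). In whole leukemia it averaged 8.24 ± 0.49 in wild type and 7.27 ± 0.27 in knockout. The genotypes did not overlap in either population, although neither difference passed limma's test (adjusted p = 0.6223 in L-GMP and 0.5916 in whole leukemia). Prkaa2, the other catalytic subunit, lay at 4.66 to 5.05 on the 12 arrays, close to the limit of 4.719 below which genes were left out. Of the sorting markers, Cd34 was higher in L-GMP than in whole leukemia on every array of both genotypes, and Kit, Fcgr3 and Fcgr2b overlapped between populations.

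Both knockout arrays numbered 2 stood apart from the rest. The knockout whole-leukemia array 2 had a score of 67.4 on principal component 1, which held 32.4% of the variance, and the remaining arrays scored -24.2 to 18.5. On it, the mean log2 level of 8 erythroid genes was 9.18, against 5.40 to 6.20 on the other arrays, and that of 12 genes of secondary and tertiary granules was 11.42, the highest of all arrays. The knockout L-GMP array 2 scored -41.3 on the second component (17% of the variance). There the mean of 10 eosinophil, basophil and mast cell genes was 7.20, against 5.22 to 6.07 on the others. The labels do not tell these arrays from their replicates, so both were kept, and differences that they carry are also given over the other 10 arrays, a choice made after the values were seen.

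The promoters of Elane, Prtn3 and Ctsg are shown because these 3 genes varied together across the 12 arrays, in large part through 1 array, as described further on. The 250 bases before the annotated start are from RefSeq (GRCm38.p6), which gave an entry for 6 of the 7 genes, read 5′ to 3′ on the gene's strand. Elane lies at chr10:79886062-79886311 (plus strand), Prtn3 at chr10:79879417-79879666 (plus strand) and Ctsg at chr14:56102575-56102824 (minus strand). Capitals mark matches on either strand to GAGGAA, a core bound by PU.1, and to AACNG, the core bound by MYB proteins, and capitals run together where matches adjoin.
Elane: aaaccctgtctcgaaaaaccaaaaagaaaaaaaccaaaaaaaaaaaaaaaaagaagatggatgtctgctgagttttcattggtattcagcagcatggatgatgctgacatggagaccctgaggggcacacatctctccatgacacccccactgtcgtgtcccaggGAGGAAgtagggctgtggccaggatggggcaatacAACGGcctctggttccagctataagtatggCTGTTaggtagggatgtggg
Prtn3: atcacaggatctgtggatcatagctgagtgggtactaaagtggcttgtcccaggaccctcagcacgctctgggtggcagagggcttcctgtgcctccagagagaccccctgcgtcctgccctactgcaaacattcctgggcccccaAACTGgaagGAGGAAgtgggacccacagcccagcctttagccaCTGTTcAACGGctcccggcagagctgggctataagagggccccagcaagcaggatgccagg
Ctsg: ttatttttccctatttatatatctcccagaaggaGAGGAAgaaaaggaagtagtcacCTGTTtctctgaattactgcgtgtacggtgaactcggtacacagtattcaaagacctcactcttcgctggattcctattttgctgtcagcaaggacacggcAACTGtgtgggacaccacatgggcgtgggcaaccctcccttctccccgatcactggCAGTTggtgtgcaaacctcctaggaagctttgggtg
GAGGAA stood 85 to 80 bases before the start of Elane, 95 to 90 before Prtn3 and 216 to 211 before Ctsg. An AACGG match followed at 50 to 46 bases before Elane and at 55 to 51 before Prtn3. The neighbouring genes Prtn3 and Elane thus held GAGGAA and AACGG in the same order at similar distances. AACGG was picked among several AACNG matches. Elane had another at 20 to 16, and Prtn3 had others at 61 to 57 and, before its GAGGAA, at 104 to 100. The share of all promoters with AACGG, or with this order, was not computed. Mpo, the remaining member with a GAGGAA, had 2 of them, at 247 to 242 and 224 to 219 bases before its start. Ms4a3 and Nkg7 had 0. Over 32851 promoters of the same length, 23.3% held a GAGGAA and 74.2% an AACNG, so the latter is common. The C/EBP core TTGCNNAA was found in 0 of the 6 member windows and in 9.56% of all, and TGTGGT, bound by RUNX factors, in Ctsg and Nkg7 and in 14% of all. TATAAA was matched in Ctsg alone among the members, on the opposite strand at 237 to 232 bases before its start, and in 12.4% of all promoters. The Elane and Prtn3 windows hold TATAAG, which differs in its last letter and was not counted. In these windows no GAGGAA match overlapped an AACNG match, and a match is a description of the sequence, not a measured site.

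Mpo (probe set 17254877) encodes myeloperoxidase, the heme enzyme that makes hypochlorous acid. Its log2 levels were 10.49, 10.10 and 10.61 in wild-type whole leukemia and 11.54, 10.87 and 9.63 in knockout whole leukemia. In L-GMP they were 11.31, 9.82 and 11.20 in wild type and 11.14, 12.23 and 10.29 in knockout. All 4 groups overlapped, and the knockout arrays held both the highest value (L-GMP array 2) and the lowest (whole-leukemia array 3). The knockout mean was higher by 0.44 in L-GMP (SE 0.59, 95% interval -0.86 to 1.75) and by 0.28 in whole leukemia (SE 0.59), with limma adjusted p of 0.9998 and 0.962. Levels from bulk sorted cells do not tell fewer expressing cells from less RNA per cell.

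Elane (probe set 17235011) encodes neutrophil elastase. It read 11.47, 11.58 and 11.72 in wild-type and 12.32, 10.29 and 12.12 in knockout whole leukemia. In L-GMP it read 12.02, 11.53 and 11.70 in wild type and 12.18, 12.19 and 12.24 in knockout. The 3 knockout L-GMP arrays agreed within an SD of 0.03 and all lay above the 3 wild-type L-GMP arrays, while knockout whole leukemia spread the widest because array 2 was low. The L-GMP difference was 0.46 (SE 0.42, 95% interval -0.48 to 1.39). An exact two-sided permutation test gave p = 0.1, which is the smallest that 3 arrays against 3 can reach. In whole leukemia the means differed by -0.01 (SE 0.42, limma adjusted p = 0.9987), and without the 2 knockout arrays numbered 2 by 0.63 (adjusted p = 0.7525).

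Prtn3 (probe set 17235002) encodes proteinase 3, the target of autoantibodies in human vasculitis. It read 10.59, 10.48 and 10.57 in wild-type and 10.99, 9.64 and 10.91 in knockout whole leukemia. In L-GMP it read 11.08, 10.64 and 10.78 in wild type and 11.05, 11.51 and 11.22 in knockout. Knockout whole-leukemia array 2 was again the lowest of all 12, and knockout L-GMP array 2 the highest. L-GMP lay above whole leukemia with no overlap in both genotypes, by 0.29 in wild type and by 0.75 in knockout (SE 0.30, 95% interval 0.07 to 1.42). The knockout value had an unadjusted p of 0.03262 and an adjusted p of 0.6715 in limma, and did not pass. Without both knockout arrays numbered 2 it was 0.19.

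Ctsg (probe set 17306975) encodes cathepsin G, a protease of chymotrypsin-like specificity. It read 11.54, 11.56 and 11.19 in wild-type and 12.01, 9.81 and 11.75 in knockout whole leukemia. In L-GMP it read 11.96, 11.76 and 11.57 in wild type and 12.10, 12.19 and 11.96 in knockout. As for Elane and Prtn3, array 2 of knockout whole leukemia lay far below the others. As for Prtn3, wild-type L-GMP lay above wild-type whole leukemia with no overlap, which was not so for Elane. In knockout, L-GMP exceeded whole leukemia by 0.89 (SE 0.45, limma adjusted p = 0.6867), and by 0.15 without both arrays numbered 2. The genotypes differed by 0.32 in L-GMP (SE 0.45) and by -0.24 in whole leukemia, where the difference was 0.45 without those arrays.

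Prss57 (probe set 17242687) encodes neutrophil serine protease 4, which cleaves after arginine. It read 6.40, 7.33 and 8.03 in wild-type and 8.98, 7.12 and 8.12 in knockout whole leukemia. In L-GMP it read 6.87, 7.40 and 7.53 in wild type and 8.69, 9.24 and 8.41 in knockout. Each knockout L-GMP array lay above each wild-type one, whereas whole leukemia overlapped. The L-GMP difference was 1.51 (SE 0.49, 95% interval 0.42 to 2.60), a 2.85-fold higher mean. Its unadjusted p was 0.01114, the 175th lowest of all genes tested, and its adjusted p in limma was 0.9998. It lay between 1.28 and 1.69 when any 1 of the 12 arrays was left out. In whole leukemia the difference was 0.82 (adjusted p = 0.8449), ranging from 0.37 without knockout array 1 to 1.30 without knockout array 2.

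Ms4a3 (probe set 17362998) encodes a membrane protein of the MS4A family. It read 8.49, 8.42 and 9.56 in wild-type and 10.49, 8.74 and 9.30 in knockout whole leukemia. In L-GMP it read 9.43, 7.94 and 8.64 in wild type and 9.94, 11.02 and 8.84 in knockout. The genotypes overlapped in both populations, the widest knockout spread being in L-GMP (SD 1.09). Its L-GMP difference was 1.26 (SE 0.62, 95% interval -0.11 to 2.64), and 0.72 without both knockout arrays numbered 2. In whole leukemia it was 0.69, ranging from 0.20 without knockout array 1 to 1.07 without knockout array 2.

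Nkg7 (probe set 17477101) read 6.14, 6.28 and 6.61 in wild-type and 8.87, 7.94 and 7.15 in knockout whole leukemia. In L-GMP it read 5.90, 5.71 and 5.75 in wild type and 7.37, 10.82 and 6.66 in knockout. It was the only member whose genotypes did not overlap in either population: every knockout array exceeded every wild-type array. Equally numbered wild-type arrays of the 2 populations varied together, so the populations are not independent observations. Over the 7 members, knockout arrays numbered 2 and 3 also did (r = 0.771 and 0.869), but not those numbered 1 (-0.0218). The knockout mean was higher by 2.50 in L-GMP (SE 0.86, 95% interval 0.58 to 4.41; 5.65-fold), with an unadjusted p of 0.01548 and an adjusted p of 0.9998 in limma. In whole leukemia it was higher by 1.64 (SE 0.86, 95% interval -0.27 to 3.56; 3.12-fold, adjusted p = 0.8294). Much of the L-GMP value came from array 2: without both knockout arrays numbered 2 it was 1.23 in L-GMP and 1.66 in whole leukemia. Only 0.00563% of the tested genes had a higher difference than Nkg7 in L-GMP, and 0.146% in whole leukemia.

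**Figure D1:**
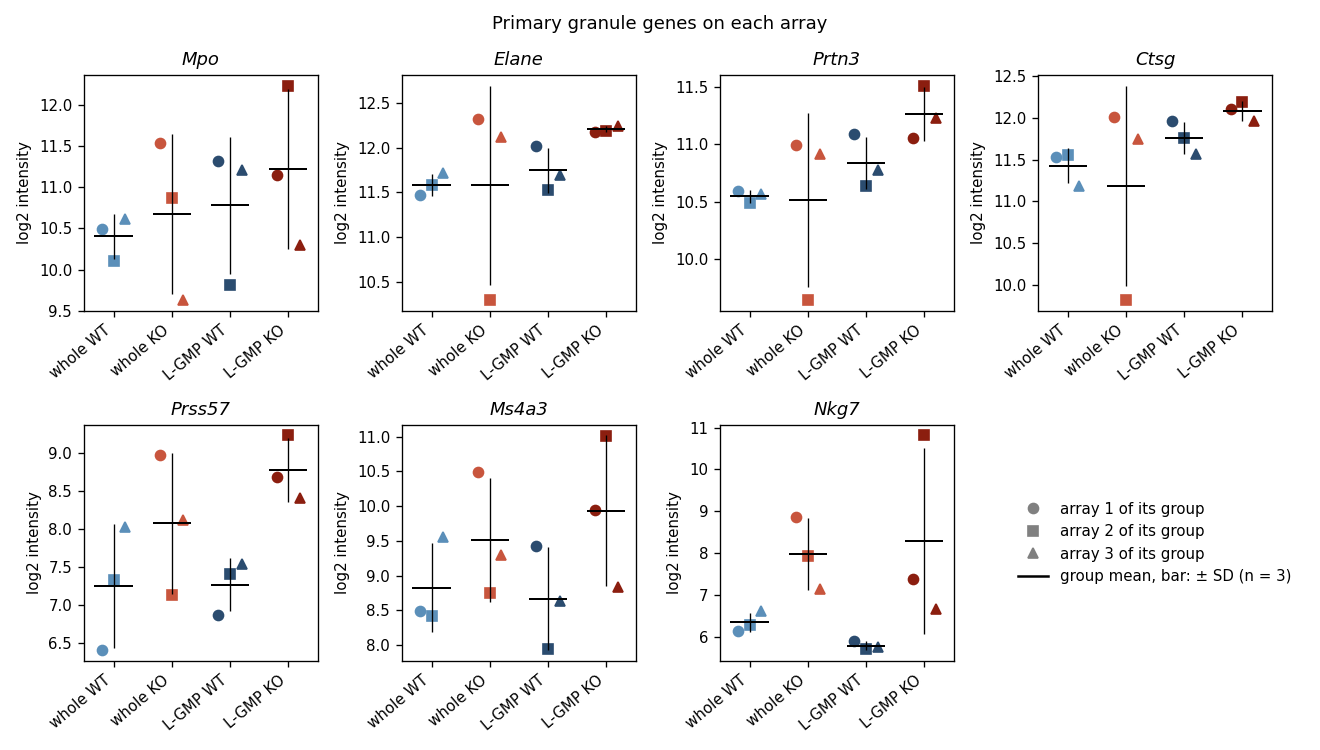
Log2 intensity (y axis, scaled per gene) of each gene on the 12 arrays, by group (x axis); symbols give the array's number, horizontal lines the group mean and bars ± 1 SD (n = 3). Knockout arrays of Nkg7 lie above wild type in both populations, and array 2 of knockout whole leukemia is the lowest point for Elane, Prtn3 and Ctsg.

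Because Nkg7 is used as a marker of cytotoxic lymphocytes, their genes were read on the same arrays. The mean log2 level of 12 natural killer and T cell genes lay between 4.94 and 5.53, and the highest was knockout whole-leukemia array 2. On knockout L-GMP array 2, where Nkg7 was 10.82, that mean was 4.94. Ccl5, a chemokine of T and natural killer cells, read 6.07, 6.91 and 6.95 in wild-type and 6.01, 7.13 and 7.79 in knockout whole leukemia, and in L-GMP 6.09, 5.85 and 6.03 in wild type and 5.88, 5.64 and 6.38 in knockout. Its genotypes overlapped in both populations. Ncr1, which defines natural killer cells, lay at 4.94 to 5.49 on all arrays, and Gzma, Gzmb and Cd3g averaged below the limit for dim genes. Of the 9 list genes that were tested, 3 were higher and 6 lower in knockout L-GMP, 4 and 5 in knockout whole leukemia. Prf1, the pore-forming protein of cytotoxic granules, was lower in knockout L-GMP without overlap, at -0.22 (3.66% of all genes were lower without overlap; unadjusted p = 0.03393, limma adjusted p = 0.9998). Cd3d, a T cell receptor chain partner, read 5.41, 8.50 and 5.77 in knockout whole leukemia, 1.42 above wild type on average and 0.44 above it without array 2. The part of these cells in the Nkg7 difference was not tested.

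Knockout against wild type in L-GMP gave positive differences for all 7 genes, from 0.32 for Ctsg to 2.50 for Nkg7, with a median of 0.46 against 0.02 over all 17749 genes. A positive difference of any size was found for 54.8% of the tested genes. The members were chosen with earlier results known, so this share and those below are descriptions only. No member was called at an adjusted p under 0.05 (0 of 7; over all genes 0.00563%, which is 1 gene). Elane, Prss57 and Nkg7 had knockout arrays wholly above wild-type arrays, as had 5.82% of the tested genes. Prss57 and Nkg7 reached an unadjusted p under 0.05 in the higher direction, as did 2.3%. The 3 members with the largest differences, Nkg7, Prss57 and Ms4a3, were exceeded by 0.00563%, 0.0507% and 0.118% of all tested genes, and the 4 classical markers by 2.28% (Elane) to 5.54% (Ctsg). Without both knockout arrays numbered 2, 6 of 7 were higher and Mpo was at -0.0603.

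In whole leukemia, 4 of the 7 genes were higher in knockout (Nkg7, Prss57, Ms4a3 and Mpo) and Elane (-0.01), Prtn3 (-0.03) and Ctsg (-0.24) were lower. Positive differences were found for 49.6% of all genes, and the member median was 0.28 against -0.00 over all genes. Calls numbered 0 of 7 (0% of all genes), 0 members reached an unadjusted p under 0.05 (2.43% of all genes in the higher direction), and 1 member, Nkg7, did not overlap between genotypes (5.46% of all genes in the higher direction). Without both knockout arrays numbered 2 all 7 were higher, with Elane at 0.63, Ctsg at 0.45 and Prtn3 at 0.40. Without knockout array 1 in their place, 3 of 7 were higher, with Ctsg at -0.65, Elane at -0.38 and Mpo at -0.15. Weighting the arrays by their fit turned Mpo to -0.18 and put Elane at 0.35. The erythroid and later granule genes quoted above were highest on the array that carried the low values of these 3 genes; their part in the result was not tested.

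**Figure D2:**
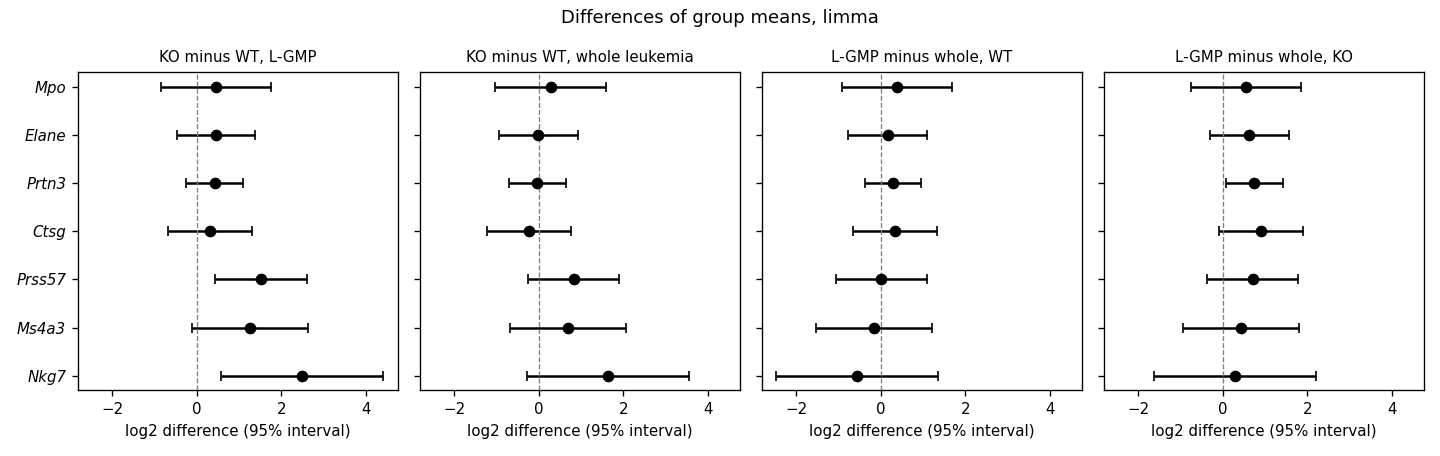
Log2 differences of group means from limma (x axis) for each gene (y axis), with 95% intervals, in the 4 comparisons of the design. In L-GMP all 7 points lie above 0, and the intervals of Prss57 and Nkg7 leave out 0; intervals are not adjusted for the number of genes.

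L-GMP against whole leukemia asks whether the fraction sorted for progenitor markers carries more of these transcripts. In wild type, 5 of the 7 genes were higher in L-GMP (48.8% of all genes), with a median of 0.16. Prtn3 and Ctsg lay wholly above whole leukemia (4.89% of all genes do in that direction) and Nkg7 wholly below it, at -0.56 (5.4%). Of the members, 0 reached an unadjusted p under 0.05 in wild type, against 0.924% of all genes in the higher and 1.57% in the lower direction. In knockout all 7 were higher in L-GMP (52.4% of all genes), from 0.30 for Nkg7 to 0.89 for Ctsg, with a median of 0.63 against 0.01. Prtn3 alone did not overlap (5.49%) and alone reached an unadjusted p under 0.05 (4.3%). Calls numbered 0 of 7 in both genotypes (0% of all genes in each). In knockout, 3 of the 7 were higher in L-GMP without both arrays numbered 2. The comparisons by genotype and by population use the same arrays, so their values are not independent of each other.

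The genotype difference was larger in L-GMP than in whole leukemia for all 7 genes, by 0.17 for Mpo to 0.85 for Nkg7 (median 0.56), and 54.8% of all genes had such a sign. This interaction was called for 0 of 7 members (0% of all genes), the lowest adjusted p among members was 1 in limma, and 0 members reached an unadjusted p under 0.05 (1.2% of all genes in that direction). Without both knockout arrays numbered 2 the interaction was above 0 for 0 of the 7. A different genotype effect in the 2 populations was therefore not detectable with 3 arrays a group.

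Ordered by group mean, knockout L-GMP was the highest group for all 7 genes. The lowest group was wild-type whole leukemia for Mpo and Prss57, knockout whole leukemia for Elane, Prtn3 and Ctsg, and wild-type L-GMP for Ms4a3 and Nkg7. Of the 21 pairs of neighbouring groups in these orders, 5 did not overlap: knockout above wild-type L-GMP for Elane, wild-type L-GMP above wild-type whole leukemia for Prtn3 and Ctsg, and, for Nkg7, knockout above wild-type whole leukemia and wild-type whole leukemia above wild-type L-GMP. In 7 of the 21 the gap exceeded the larger SD. The orders were set by these same means, and neither count was computed over all genes, so both are descriptions only. Knockout arrays spread more than wild-type arrays for all 7 genes in whole leukemia and for 5 in L-GMP. Knockout L-GMP array 2 held the highest value of 6 of the 7 genes, and Elane peaked on knockout whole-leukemia array 1.

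Among themselves the genes varied in blocks, which were named after their values were seen. With group means removed, Elane, Prtn3 and Ctsg correlated at Pearson r of 0.947 (Elane and Prtn3), 0.944 (Elane and Ctsg) and 0.926 (Prtn3 and Ctsg) over 12 arrays. Mpo correlated at 0.781 with Ms4a3 and at 0.762 with Nkg7, and Ms4a3 at 0.732 with Nkg7. The 9 pairs between these blocks ran from 0.0057 (Mpo and Ctsg) to 0.604 (Prtn3 and Ms4a3), with Elane and Ms4a3 at 0.517. Prss57 fitted neither block, at 0.270 with Mpo to 0.629 with Ms4a3. The tie within the first block rested largely on knockout whole-leukemia array 2: without it, Elane correlated at 0.602 with Prtn3 and at 0.202 with Ctsg, and Prtn3 at 0.407 with Ctsg. The second block kept 0.895 (Mpo and Ms4a3), 0.768 (Mpo and Nkg7) and 0.787 (Ms4a3 and Nkg7) without that array. Without knockout L-GMP array 2 its values were 0.690, 0.795 and 0.684. Mpo with Elane was at 0.033 on all arrays and at 0.512 without knockout whole-leukemia array 2. Without both knockout arrays numbered 2, Elane correlated more with Ms4a3 (0.776) than with Ctsg (0.221), so the first block did not hold over the remaining arrays, while the second kept 0.752 to 0.848. All genes share the 12 arrays and their amplification, so these are descriptions.

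**Figure D3:**
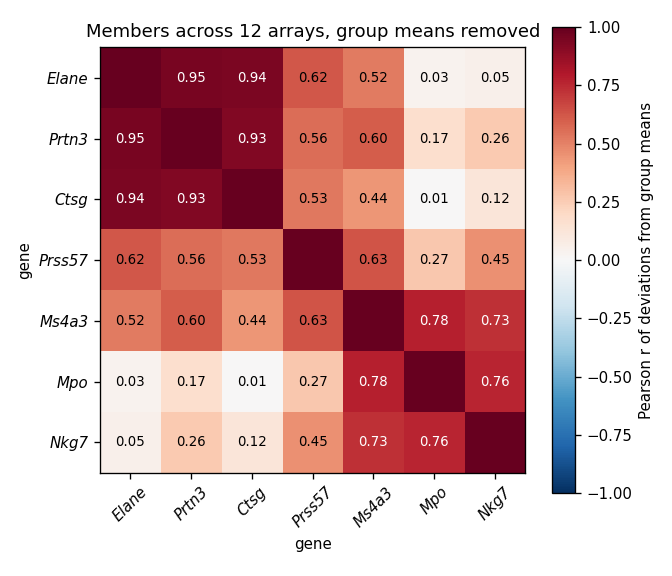
Pearson r (colour and number) between each pair of genes (both axes) over the 12 arrays, after each group's mean was subtracted. On all arrays Elane, Prtn3 and Ctsg form one block (0.93 to 0.95) and Mpo, Ms4a3 and Nkg7 another (0.73 to 0.78), with Mpo and Elane at 0.03. Without knockout whole-leukemia array 2 the values among Elane, Prtn3 and Ctsg fall to 0.20 to 0.60.

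The genes with profiles most like the mean of the 7 over the 12 arrays were Chd1l (r = 0.968), Rpia (0.965), Per3 (0.943), Wwc2 (0.918), Afap1 (0.917), Tslp (0.910) and Abhd17c (0.905), beside 1 predicted gene. Chd1l encodes a chromatin remodeler, Rpia an enzyme of the pentose phosphate pathway and Per3 a circadian period protein. Chd1l and Rpia stayed at r of 0.935 and 0.946 without knockout L-GMP array 2. Their own differences were modest: in L-GMP knockout exceeded wild type by 0.39 for Chd1l and 0.46 for Rpia. Among listed genes the most alike was Kit, the stem cell factor receptor used in the sort, at r = 0.804, with 0.389% of the tested genes more alike. Kit read 8.18, 7.36 and 7.14 in wild-type and 8.88, 9.40 and 7.65 in knockout L-GMP, a difference of 1.08 (SE 0.47, unadjusted p = 0.04467, limma adjusted p = 0.9998), and of 0.70 without both knockout arrays numbered 2. The L-GMP group means of Cd34, Fcgr3 and Fcgr2b differed by less than 0.1 between genotypes. Without both knockout arrays numbered 2 these differences were -0.21, 0.14 and 0.08.

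On the genome, Prss57, Prtn3 and Elane lie near each other on chromosome 10, in the order Prss57, Palm, Misp, Ptbp1, Plppr3, Prtn3, Elane, Cfd. Up to 3 annotated genes on each side of a member were read. In 30 pairs of a member and a tested neighbour that is no member, r over the 12 arrays was above 0 in 22 and below 0 in 8, with a median of 0.50. Ptbp1, Plppr3, Med16 and Misp are counted there more than once. The count and median were not computed for other gene pairs or without both knockout arrays numbered 2, so they describe the 12 arrays only. Single pairs moved without those arrays: Med16 with Elane went from 0.476 to -0.565 and Misp with Prtn3 from -0.284 to 0.508. Palm with Prss57 stayed at 0.763. Plppr3, just before Prtn3, had the highest r, at 0.932 with Prtn3 (0.887 without both knockout arrays numbered 2), and R3hdm4, beyond Elane, the lowest, at -0.81 with Elane (-0.13 without them). Ptbp1 lay at 0.736 with Prtn3 (0.17 without them) and Misp at -0.284. Palm and Fstl3, on the 2 sides of Prss57, correlated with it at 0.788 and 0.820, and Fgf22 at -0.448. Ctsg lies on chromosome 14 beside Mcpt8, a basophil protease gene, with r = 0.920 (0.588 without both arrays). Mcpt8, too, was lowest on knockout whole-leukemia array 2 (6.86 against 7.94 to 8.97). Mpo lies on chromosome 11 near Epx, the eosinophil peroxidase gene (r = 0.611, and 0.305 without both arrays), Lpo (0.315) and Mks1 (-0.415). Neighbours were taken by position, and those named were picked after their values were seen.

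Proteases of primary granules are made as inactive forms, cleaved by dipeptidyl peptidase I (Ctsc), packed on the proteoglycan serglycin (Srgn), sorted by the AP-3 adaptor (Ap3b1) and held in check by serpins and Slpi. Of 12 such genes, all tested, 9 were higher and 3 lower in knockout L-GMP (median 0.14), 5 higher and 7 lower in knockout whole leukemia (median -0.16), and 0 were called in either. Ctsc itself read 8.34, 8.17 and 7.53 in wild-type and 7.13, 6.39 and 6.62 in knockout whole leukemia. The knockout arrays lay wholly below, as for 5.73% of all genes, at -1.30 (SE 0.40, unadjusted p = 0.008916, limma adjusted p = 0.8077). In L-GMP Ctsc overlapped, at -0.32. Slpi, a secreted inhibitor of elastase and cathepsin G, was lower in knockout whole leukemia without overlap, at -0.75 (adjusted p = 0.8294), as was Ap3b1 at -0.27 (adjusted p = 0.8347). Cd63, a granule membrane protein that binds elastase for its sorting, was higher in knockout by 0.83 in L-GMP and by 0.88 in whole leukemia (adjusted p = 0.9998 and 0.8269). Calr and Canx, the chaperones that fold myeloperoxidase, were higher in L-GMP than in whole leukemia of the knockout by 0.94 and 0.52 (adjusted p = 0.6715 each), and Cst7, an inhibitor of cathepsins, by 1.26. Calr and Canx were lowest on knockout whole-leukemia array 2, at 8.93 and 9.68. Over the other 10 arrays these 3 differences were 0.41, 0.22 and 0.47, the list medians were 0.09 in L-GMP and -0.0016 in whole leukemia, and Ctsc was at -1.14 in whole leukemia and -0.66 in L-GMP.

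Myeloperoxidase needs heme, and 7 of the 8 listed heme synthesis genes were measured. In knockout whole leukemia all 7 were higher, with a median of 0.80, and in knockout L-GMP 5 were higher and 2 lower (median 0.11); 0 were called. With both knockout arrays numbered 2 left out, 5 of 7 were higher in whole leukemia (median 0.17) and 3 in L-GMP (median -0.054). On the single arrays of knockout whole leukemia, Cpox read 5.78, 9.28 and 5.86 and Fech 7.24, 10.40 and 7.51. Alad read 6.27, 9.24 and 6.41 there, and Uros 5.58, 6.52 and 5.62. Alas1 went the other way, at 9.25, 7.86 and 8.78, and its mean was higher by only 0.04. Alas1 was thus at its lowest of all arrays on knockout whole-leukemia array 2, where Cpox, Fech, Alad, Uros, Urod and Ppox peaked. That array also had the highest erythroid level, whose part in the result was not tested, while its Mpo level (10.87) lay between those of its 2 replicates.

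Of 11 granulocyte transcription factor genes, 7 were higher and 4 lower in knockout L-GMP (median 0.17), 5 and 6 in knockout whole leukemia (median -0.14), with 0 called in either. Runx1 was higher by 0.37 in knockout L-GMP without overlap (SE 0.14, unadjusted p = 0.02702, limma adjusted p = 0.9998), and Cebpd by 0.60 (adjusted p = 0.9998). Cebpb was lower in knockout L-GMP without overlap, at -0.44 (adjusted p = 0.9998). On the other 10 arrays it was at -0.14, and the list medians were 0.26 in L-GMP and 0.18 in whole leukemia, where 7 were then higher. Irf8, which favours monocytes over granulocytes, read 9.68, 9.75 and 9.46 in wild-type and 7.71, 7.78 and 8.50 in knockout whole leukemia. The knockout arrays lay wholly below, at -1.63 (SE 0.74, adjusted p = 0.8294), and in L-GMP the genotypes overlapped. Myb, whose core the promoters above and 74.2% of all promoters hold, lay at 10.69 to 11.26 on 11 arrays. It read 8.87 on knockout whole-leukemia array 2, the array with the lowest Elane, Prtn3 and Ctsg. Cebpa (6.43), Calr and Canx were also lowest there, and the part of Myb in these levels was not tested.

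Among 12 receptors and surface proteins of progenitors, 6 were higher and 6 lower in knockout L-GMP and 5 and 7 in knockout whole leukemia, with 0 called. In knockout whole leukemia Cd34 differed by -2.32 (SE 0.37, adjusted p = 0.4785), Flt3, a cytokine receptor of early progenitors, by -2.26 (adjusted p = 0.8005) and Csf1r, the macrophage growth factor receptor, by -0.99. Csf3r, the granulocyte growth factor receptor, was higher by 0.99 (adjusted p = 0.8269 for both), and by 0.51 without both knockout arrays numbered 2. Without them 9 of the 12 were higher in L-GMP and 6 in whole leukemia. Within the knockout, Cd34 was higher in L-GMP by 3.26 (adjusted p = 0.07434, the lowest of that comparison).

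Genes of other stages and cell types were read in the same comparisons. Of 12 secondary and tertiary granule genes, 11 were higher in knockout whole leukemia (median 1.31) and 5 in knockout L-GMP (median -0.06), led by Ly6g (2.66) and Retnlg (3.48) in whole leukemia, both with overlap. Over the other 10 arrays the medians were 0.85 in whole leukemia (10 higher) and 0.21 in L-GMP (8 higher), with Ly6g at 1.52 and Retnlg at 2.49. In L-GMP against whole leukemia, 0 of these 12 were higher in either genotype (lower values were found for 51.2% of all genes in wild type and 47.6% in knockout), with medians of -1.16 in wild type and -2.08 in knockout, where 9 did not overlap (4.66% of all genes on the lower side). Retnlg (-4.60) and Mmp8 (-3.87) had the lowest p, and without both arrays the knockout median was -1.54. Of 14 monocyte and macrophage genes, 13 were lower in knockout in each population (45.2% of all genes in L-GMP and 50.4% in whole leukemia), with medians of -0.36 in L-GMP and -0.99 in whole leukemia. Ly86 (-2.01, adjusted p = 0.4925) and Mertk (-1.42, adjusted p = 0.6093) had the lowest p, and 10 of the 14 did not overlap in whole leukemia, as for 5.73% of all genes on the lower side. Over the other 10 arrays the medians were -0.28 and -0.78. None of these lists held a called gene.

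Eosinophil, basophil and mast cell genes were highest on the array where most members peaked. Of 7 tested, all were higher in knockout L-GMP (median 0.79) and 5 in knockout whole leukemia (median 0.17), with 0 called. With both knockout arrays numbered 2 left out, 4 were higher in L-GMP (median 0.05) and 3 in whole leukemia (median -0.0077). Prg2, the eosinophil major basic protein gene, read 8.85, 11.92 and 5.57 in knockout L-GMP, 11.38 on knockout whole-leukemia array 2 and 5.45 to 6.59 on the remaining arrays. Epx read 8.20 and Cpa3, a mast cell protease gene, 8.41 on knockout L-GMP array 2, and 6.31 and 6.24 at most elsewhere. The part of these cells in the member differences was not tested. Of 8 erythroid genes, all were higher in knockout whole leukemia (median 1.59), with the lowest p for Tfrc (1.52, adjusted p = 0.8005), and 7 in knockout L-GMP (median 0.18). On the other 10 arrays 7 were higher in whole leukemia (median 0.36, Tfrc 0.82) and 6 in L-GMP (median 0.08). The mean of 9 B cell genes lay between 5.13 and 5.50, and 4 of 7 tested were higher in knockout L-GMP and 6 of 7 in knockout whole leukemia. None of these genes was called.

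**Figure D4:**
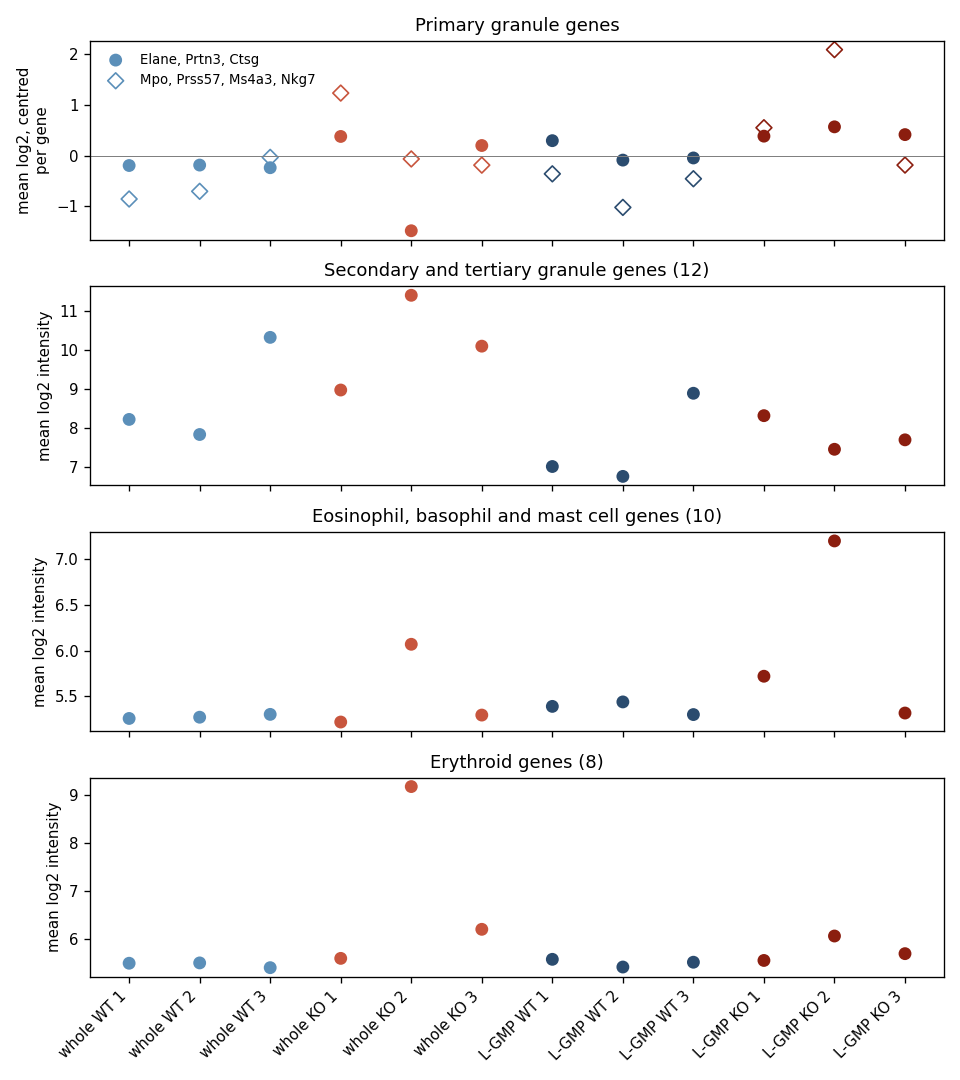
Mean log2 level on each array (x axis) of Elane, Prtn3 and Ctsg and of the remaining 4 primary granule genes, each gene centred on its own mean (top), and of 3 lists of other cell types or stages (lower panels, number of genes in brackets; every y axis has its own range). Elane, Prtn3 and Ctsg are at -1.48 on knockout whole-leukemia array 2, where erythroid genes are at 9.18, and the remaining 4 genes are at 2.09 on knockout L-GMP array 2, where eosinophil, basophil and mast cell genes are at 7.20.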

How the data were processed

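Expression was measured on 12 one-colour arrays, 3 in each of 4 groups taken from the labels. NuGEN kits were used for amplification and biotin labelling, per the labels' protocols. Each deposited value is a linear intensity of a probe set (33794 probe sets, 17.964 to 9108.2, array medians 36.9 to 39.3). For the software, background correction and normalization behind them: not given in the sources used here. Arrays carry no read depth, so their number limits the precision (median standard error 0.153).

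Values were taken to log2 with no pseudocount or scaling. Symbols came from the platform annotation: 23521 probe sets had 1, 1814 several and 8459 were unlisted and stay unnamed here. Each gene was read from its single-symbol probe set of highest mean, and the lowest 25% of probe sets (mean log2 below 4.719) were dropped, a loss of 4431 genes that left 17749.

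Groups were compared with limma 3.58.1 (R 4.3.3, statmod 1.5.0), 1 mean per group over all arrays, 8 residual and 2.36 prior degrees of freedom, Benjamini-Hochberg adjustment over 17749 genes and a threshold of 0.05. The 5 comparisons set genotypes against each other within a population, populations within a genotype, and tested the interaction. The fit was tested on simulated data. Promoter sequences and neighbouring genes came from RefSeq tables (GRCm38.p6), the latter for gene order and names only, with no coordinates; the neighbours' levels are from the arrays.

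The members and the gene lists were chosen with earlier results of these data known. From each list the text names up to 4 genes of lowest p over the genotype comparisons and up to 4 over the population comparisons, the sorting markers, and other listed genes whose role is described beside a member. It also names the 8 genes most like the members, predicted genes being counted only, and Klrd1 and Klrk1 for their lack of overlap.

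Replicate numbers were checked as pairs. Deviations from group means of equally numbered wild-type arrays correlated at 0.363, 0.623 and 0.301 between whole leukemia and L-GMP, so the numbers pair these; in the knockout they correlated at 0.133, 0.0905 and 0.432, and across genotypes at -0.12 to 0.187. The standard errors and p-values of the main fit do not use the wild-type pairing. Alternatives were the filter, quantile normalization, the variance model, array weights, the mean of a gene's probe sets, fits of 2 groups, replicate blocks and leaving out arrays.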

Additional observations from a re-analysis of the deposited data

How the results depend on the processing

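Every setting gave 0 member calls in each of the 5 comparisons, and of 329 member differences under settings other than leaving out 1 array, 309 kept their direction. Most of these could not turn: the filters, variance model, probe set mean, fits of 2 groups and replicate blocks leave a member's difference as it is. Only quantile normalization, array weights and leaving out both knockout arrays numbered 2 can move it, and every turn came from these. The 309 is therefore no measure of stability. The calls among all genes were few and unstable. In L-GMP the single call became 0 without a filter, 0 with only the 2 compared groups, 2 with trended and robust variance, 2 with the mean of all probe sets and 4 with array weights. In whole leukemia the 0 calls became 1 without both knockout arrays numbered 2, an alternative chosen after seeing the data. In the knockout the 0 calls between populations became 1 with the lowest 50% of probe sets left out and 1 with trended and robust variance. The replicate block gave 0 calls in all comparisons, so the single L-GMP call was lost, and it changed no member call. The block by genotype and number was run for the population comparisons and the interaction, and a fit of only 2 groups gives no interaction value. Array weights turned 4 whole-leukemia genotype differences: Ctsg to 0.14, Elane to 0.35, Prtn3 to 0.23 and Mpo to -0.18. Quantile normalization put Prss57 at -0.00657 between wild-type populations.

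Without both knockout arrays numbered 2, the whole-leukemia genotype difference turned to 0.45 for Ctsg, 0.63 for Elane and 0.40 for Prtn3, and the L-GMP one to -0.0603 for Mpo. Between knockout populations it turned to -0.00953 for Elane, -0.50 for Ms4a3, -0.99 for Nkg7 and -0.00327 for Prss57. The interaction turned to -0.18 for Ctsg, -0.17 for Elane, -0.24 for Mpo, -0.35 for Ms4a3, -0.43 for Nkg7, -0.018 for Prss57 and -0.0985 for Prtn3. The count of higher members went from 4 to 7 in whole leukemia, from 7 to 3 between knockout populations and from 7 to 0 for the interaction.

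With 1 array left out, 398 of 420 member differences kept their direction. Leaving out an array of a group that a comparison does not use cannot move its difference. Part of the 398 was therefore fixed in advance. Calls among all genes ranged from 0 to 2 in L-GMP, 0 to 1 in whole leukemia and 0 to 40 between knockout populations, where the 40 came without knockout whole-leukemia array 1. Higher members ranged from 6 to 7 in L-GMP (6 without wild-type array 2 or knockout array 2), 3 to 7 in whole leukemia (7 without knockout array 2, 3 without knockout array 1), 4 to 6 between wild-type and 5 to 7 between knockout populations, and 5 to 7 for the interaction. The whole-leukemia genotype difference ranged from -0.65 to 0.45 for Ctsg, -0.38 to 0.63 for Elane, -0.15 to 0.80 for Mpo and -0.27 to 0.40 for Prtn3. The L-GMP one ranged from -0.0603 to 0.91 for Mpo and from 1.23 to 3.31 for Nkg7. Between knockout populations Elane ranged from -0.017 to 1.0, Ms4a3 from -0.12 to 0.97 and Nkg7 from -0.97 to 1.11. Between wild-type populations Ms4a3 ranged from -0.53 to 0.21 and Prss57 from -0.41 to 0.40. The interaction ranged from -0.13 to 0.97 for Ctsg, -0.18 to 0.84 for Elane, -0.36 to 0.63 for Mpo and -0.41 to 1.67 for Nkg7. The cause was not tested.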
